A study of Mus musculus with 6 samples.

Results

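The 9 genes described here form the core of the calcium/calmodulin-dependent protein kinase family as it is expressed in cortical neurons. They were chosen by name from the 32531 gene symbols in the deposited files, and all 9 were found. Camk2a, Camk2b, Camk2d and Camk2g encode the 4 subunits of CaM kinase II (CaMKII). Camk2n1 encodes a small protein inhibitor of CaMKII. Camk4 encodes CaM kinase IV, Camkk1 and Camkk2 encode the upstream CaM kinase kinases, and Camkv encodes a kinase-like protein without kinase activity.

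When calcium enters a neuron it binds calmodulin, and the complex switches these kinases on. CaMKII assembles into large holoenzymes from its subunits, phosphorylates itself and then stays active after calcium has dropped. In forebrain excitatory neurons it is among the most abundant postsynaptic proteins and is required for lasting synaptic strengthening. CaM kinase IV works mainly in the nucleus, where it phosphorylates CREB, and needs to be phosphorylated by a CaM kinase kinase to be fully active.

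RNA was taken from the dissected cerebral cortex of adult, untreated mice of the transgenic line Htr4-EGFP/Rpl10a (ES1299). The line makes EGFP-tagged Rpl10a, a protein of the large ribosomal subunit, under control of Htr4, the gene of a serotonin receptor, so that ribosomes are tagged in cells in which the transgene is active. Those ribosomes were pulled down with anti-EGFP antibodies (translating ribosome affinity purification, TRAP), which gave 3 immunopurified (IP) libraries, and 3 input libraries served as the reference. All 6 libraries carry the same transgene, and none comes from a mouse without it. The labels do not say that replicates are separate animals, so p-values measure the spread between these libraries, which may be technical. All input libraries have one index sequence and all IP libraries another, so index and group cannot be told apart.

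Reads on genes numbered 37696125 to 52360452 in the input libraries and 53147173 to 67559533 in the IP libraries. Levels are given in CPM, read counts scaled to a common library total with edgeR's TMM factors. Htr4 itself was at 7.88 ± 0.265 CPM in the input and 19.9 ± 2.36 CPM in the IP (SD, n = 3), a log2 fold change of 1.34 (SE 0.16, edgeR adjusted p = 5.7e-05). Counts of Rpl10a, which has near-identical copies in the genome, were low, at 1.96 ± 0.605 CPM in the input and 0.874 ± 0.106 CPM in the IP (log2 fold change -1.16, edgeR adjusted p = 0.066). The series title speaks of pyramidal neurons. Of 10 markers of all neurons, 7 were higher in the IP and 1 lower, against 21.3% and 23.4% of all tested genes. The lower one was Map2, at 1243 ± 30.1 CPM in the input and 550 ± 33.4 CPM in the IP (log2 fold change -1.18, edgeR adjusted p = 7.9e-07). Of the 5 excitatory neuron markers 2 were higher in the IP and 0 lower, and of the 5 GABAergic neuron markers 3 were higher and 0 lower. The summed excitatory markers ran from 1078 to 1257 CPM in the input and from 1228 to 1628 CPM in the IP. The summed level of the GABAergic markers ran from 817 to 912 CPM in the input and from 781 to 1199 CPM in the IP. All 6 astrocyte, 6 oligodendrocyte, 3 oligodendrocyte precursor and 6 microglial markers were lower in the IP, as were the 3 of 4 endothelial markers that could be tested. The summed oligodendrocyte markers, for example, were at 1239 to 1381 CPM in the input and 142 to 164 CPM in the IP, and the astrocyte markers at 452 to 495 and 93.4 to 117 CPM. The precursor markers summed to 45.3 to 47.9 and 3.32 to 5.11 CPM, the microglial markers to 40.9 to 46.1 and 1.63 to 3.55 CPM, and the endothelial markers to 2.34 to 5.79 and 0.0586 to 0.574 CPM. The endothelial gene Tek had 0 reads in all IP libraries.

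The comparison asked which CaM kinase transcripts were over- or under-represented on tagged ribosomes relative to the whole cortex. Among the 9 genes, Camkv and Camk2b were higher in the IP, and Camk4, Camk2n1 and Camkk2 were lower. Camk2a, Camk2d, Camk2g and Camkk1 did not pass the test. The calls were made with edgeR's quasi-likelihood test at an adjusted p under 0.05 over all 16506 tested genes. Of all tested genes, 44.8% were called in either direction, 21.3% higher and 23.4% lower, so 5 of 9 called genes is a count not far from the general level. The 2 groups of libraries did not overlap for 5 of the 9 genes, against 56.1% of all tested genes. The median log2 fold change was -0.11 over the 9 genes and -0.015 over all tested genes. In bulk RNA such as this, fewer cells of a type and less RNA per cell cannot be told apart. A smaller share of a transcript on ribosomes cannot be told apart from them either, since the IP holds RNA of ribosomes.

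**Figure D1:**
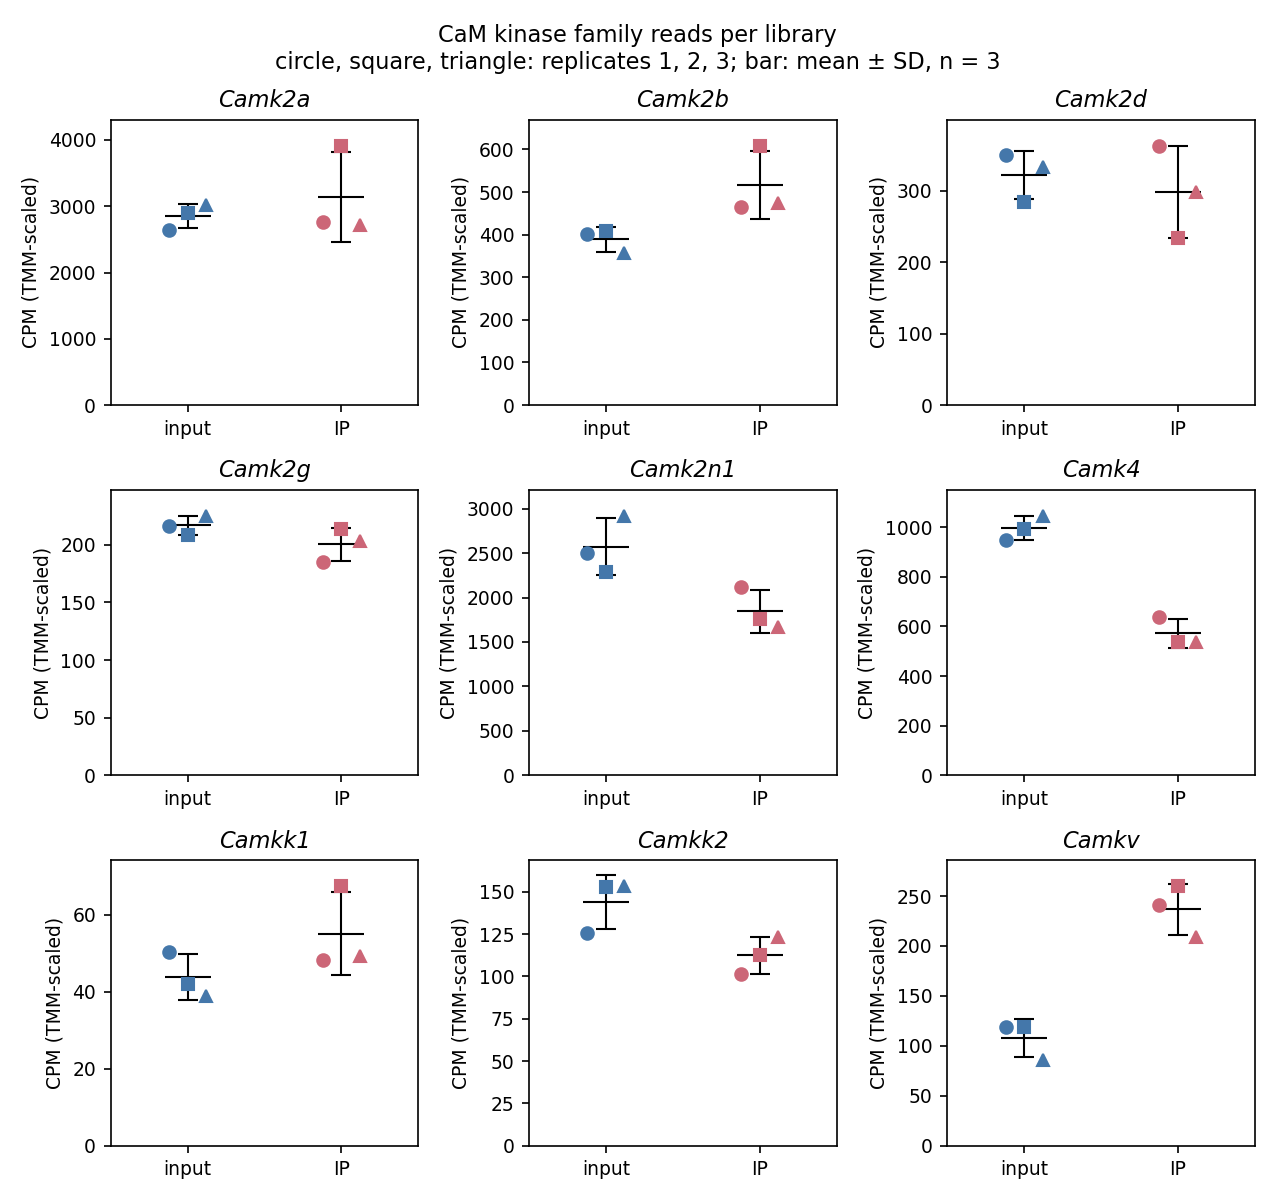
TMM-scaled CPM of each of the 9 genes (vertical axis, starting at 0) in the input and IP libraries, with replicates 1, 2 and 3 as circle, square and triangle and the mean ± SD as bars. Camkv and Camk2b lie above the input in all 3 IP libraries, Camk4, Camk2n1 and Camkk2 lie below it, and IP replicate 2 stands above the other libraries for Camk2a.

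Camk2a (chr18:60925618-60988152, plus strand, GRCm38), the alpha subunit that predominates in forebrain excitatory neurons, was the member with most reads. It was at 2647, 2891 and 3011 CPM in input replicates 1 to 3 and at 2766, 3915 and 2720 CPM in IP replicates 1 to 3. IP replicate 2 was above every input library, and the other two IP libraries lay inside the input range. The means were 2850 ± 186 CPM in the input and 3134 ± 677 CPM in the IP (SD, n = 3), and the log2 fold change was 0.14 (SE 0.13, edgeR adjusted p = 0.41). The coefficient of variation was 6.51% over the input libraries and 21.6% over the IP libraries. Without IP replicate 2 the log2 fold change was -0.050. It was called higher when length correction and the replicate block were used together (0.28, edgeR adjusted p = 0.017, and 0.26, edgeR adjusted p = 0.024, with the longest transcript).

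Camk2b (chr11:5969644-6066362, minus strand), the beta subunit that binds filamentous actin and places the holoenzyme in spines, was the one CaMKII subunit of 4 called higher. Its level was 402, 409 and 356 CPM in the input and 465, 609 and 474 CPM in the IP. All 3 IP libraries were above all 3 input libraries. The mean was 389 ± 28.6 CPM in the input and 516 ± 80.6 CPM in the IP, a fold of 1.33 (log2 0.41, SE 0.11, edgeR adjusted p = 0.0104). The call was lost without input replicate 3, the lowest input library (log2 fold change 0.36, edgeR adjusted p = 0.053), and over the alternatives the value ran from 0.28 to 0.62.

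The window before the annotated start of Camk2b is shown because this subunit was the one that was higher. It is set beside those of the kinase kinases Camkk1 and Camkk2, a pair of paralogs of which only the second was called. Each window is the 250 bases before the RefSeq start (GRCm38.p6), 5′ to 3′ on the gene's strand, with GC boxes (CCGCCC or its reverse complement GGGCGG) in capitals. The Camk2b window is chr11:6065749-6065998, minus strand. It lies inside the longer GENCODE gene and touches no annotated exon. The Camkk1 window is chr11:73018738-73018987, plus strand, and the Camkk2 window is chr5:122779411-122779660, minus strand.
Camk2b: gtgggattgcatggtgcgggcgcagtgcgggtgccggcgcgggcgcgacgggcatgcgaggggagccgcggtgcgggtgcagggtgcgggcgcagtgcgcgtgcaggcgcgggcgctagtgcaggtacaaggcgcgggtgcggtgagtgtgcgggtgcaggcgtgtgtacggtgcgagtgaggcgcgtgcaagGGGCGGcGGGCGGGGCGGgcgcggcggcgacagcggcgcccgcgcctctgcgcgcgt
Camkk1: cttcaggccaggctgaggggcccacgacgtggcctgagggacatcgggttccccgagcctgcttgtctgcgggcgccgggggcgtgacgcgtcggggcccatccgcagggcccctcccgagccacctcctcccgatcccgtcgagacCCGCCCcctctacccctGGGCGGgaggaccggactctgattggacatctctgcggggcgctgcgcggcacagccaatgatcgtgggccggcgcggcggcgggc
Camkk2: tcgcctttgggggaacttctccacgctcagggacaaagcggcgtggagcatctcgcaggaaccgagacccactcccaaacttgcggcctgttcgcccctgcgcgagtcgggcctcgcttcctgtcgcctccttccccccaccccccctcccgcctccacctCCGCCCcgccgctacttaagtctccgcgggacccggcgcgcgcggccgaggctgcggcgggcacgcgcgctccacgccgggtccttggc

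All 3 windows are rich in G and C: 78.4% of the bases with 44 CpG dinucleotides before Camk2b, 74.4% with 29 before Camkk1, and 72.4% with 32 before Camkk2. Over the 32851 RefSeq windows of this length the median was 52.4% and 6 CpG. RefSeq windows were matched for 5 of the 9 genes, the other two being those of Camk2d (68.4%, 23 CpG) and Camkv (67.6%, 18 CpG). Of the Camkv window, 246 bases lie in exons of the GENCODE annotation. Searched on both strands, CCGCCC occurred in all 5 and in 32.7% of all windows. CCAAT occurred in the Camkk1 window alone among the 5 and in 33.8% of all windows. The core of the CREB site, TGACG, also occurred in the Camkk1 window alone and in 17.8% of all windows. The full palindrome TGACGTCA, which contains that core, was in 0 of the 5 and in 1.55% of all windows. TATAAA (12.4% of all windows), CAGATG (14.4%) and the EGR1-type site GCGTGGGCG (0.536%) were in 0 of the 5. The matches describe these letters only.

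Camk2d (chr3:126596302-126846326, plus strand), the delta subunit found widely outside the brain as well, was at 350, 285 and 333 CPM in the input and 363, 234 and 298 CPM in the IP. IP replicate 1 was the highest and IP replicate 2 the lowest of the 6 libraries, so the groups overlapped. The log2 fold change was -0.11 (SE 0.14, edgeR adjusted p = 0.55), and its sign turned to 0.041 without IP replicate 2. It also turned when the fit corrected for gene length, to 0.43 (edgeR adjusted p = 0.043) with the summed length of all annotated exons and to 0.074 with that of the longest transcript. The exons of Camk2d sum to 22493 bases, against 5524 in its longest transcript. Genes annotated on the opposite strand overlap Camk2d, Camk4 and Camkv, and genes on the same strand overlap Camk2a and Camk2d. Reads matching several genes are counted for none of them, and were 8.99% of listed reads in the input and 1.82% in the IP. How many the members lost is not known, as the strand setting and gene models are not given.

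Camk2g (chr14:20734875-20794088, minus strand), the gamma subunit, which has been tied to carrying calmodulin to the nucleus, was at 217, 209 and 225 CPM in the input and 185, 213 and 203 CPM in the IP. The ranges overlapped through IP replicate 2 alone. The log2 fold change was -0.11 (SE 0.087, edgeR adjusted p = 0.32). Camk2g stayed uncalled under all 17 alternative settings, with values from -0.16 to -0.0046.

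Camk2n1 (chr4:138454314-138460123, plus strand), which binds active CaMKII and blocks it, was lower in the IP. It was at 2502, 2287 and 2919 CPM in the input and 2122, 1756 and 1663 CPM in the IP. The highest IP library lay below the lowest input library. The mean fell from 2569 ± 321 to 1847 ± 242 CPM, 1.39-fold (log2 fold change -0.48, SE 0.11, edgeR adjusted p = 0.0046). The call held under all 17 alternatives, with values from -0.58 to -0.36. Its paralog Camk2n2, the second CaMKII inhibitor, was higher in the IP, at 63.5 ± 6.09 CPM in the input and 110.4 ± 13.7 CPM in the IP (log2 fold change 0.80, SE 0.12, edgeR adjusted p = 0.00021). That value ran from 0.36 to 0.89 over the alternatives, lowest with the length offset and block. The log2 ratio of Camk2n1 to Camk2n2 reads was 5.16, 5.18 and 5.66 in the input and 4.28, 4.17 and 3.74 in the IP. Camk2n1 had more reads than Camk2n2 in every library, and the ratio was 2.41-fold lower in the IP (log2 difference -1.27).

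Camk4 (chr18:32934931-33191228, plus strand) was the most reduced of the 9 genes. It was at 950.2, 992 and 1046 CPM in the input and 637, 539 and 538 CPM in the IP. The highest IP library was far below the lowest input library. The mean fell from 996 ± 47.8 to 572 ± 57.0 CPM, 1.74-fold (log2 fold change -0.80, SE 0.090, edgeR adjusted p = 3.3e-05). The log2 fold change was between -0.96 and -0.71 under all 17 alternatives, and the call held in each.

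Camkk1 (chr11:73019008-73042073, plus strand) and Camkk2 (chr5:122731170-122779409, minus strand) encode the kinases that activate CaM kinases I and IV, and Camkk2 alone was called. Camkk1 was at 50.3, 42.1 and 38.8 CPM in the input and 48.3, 67.4 and 49.4 CPM in the IP. IP replicate 2 stood above the rest, and the other two IP libraries lay below the highest input library. Its log2 fold change was 0.33 (SE 0.15, edgeR adjusted p = 0.093), which passed the threshold with scaling to total counts (0.42, edgeR adjusted p = 0.041) and without IP replicate 1 (0.43, edgeR adjusted p = 0.048). Camkk2, which also activates AMP-activated kinase, was at 125, 153 and 153 CPM in the input and 102, 113 and 123 CPM in the IP. The highest IP library lay just below the lowest input library. The mean fell 1.28-fold, from 144 ± 15.9 to 112 ± 10.7 CPM (log2 fold change -0.35, SE 0.11, edgeR adjusted p = 0.0197). That call was lost in 7 of 17 alternatives: with total counts (-0.26), with both corrections for length (-0.078 and -0.22), with the first of these and a replicate block (-0.080), and without input replicate 2 (-0.32), input replicate 3 (-0.29) or IP replicate 1 (-0.28).

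Camkv (chr9:107935674-107949691, plus strand), a vesicle-associated pseudokinase that binds calmodulin and is needed to keep dendritic spines, showed the largest difference of the 9 genes. It was at 119, 119 and 85.7 CPM in the input and 241, 260 and 209 CPM in the IP. The lowest IP library was well above the highest input library. The mean rose from 108 ± 19.2 to 237 ± 25.6 CPM, 2.20-fold (log2 fold change 1.13, SE 0.13, edgeR adjusted p = 4.3e-05). The fold change lay at the 95.9th percentile of all tested genes. Under all 17 alternatives the call held, with values from 1.01 to 1.23.

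**Figure D2:**
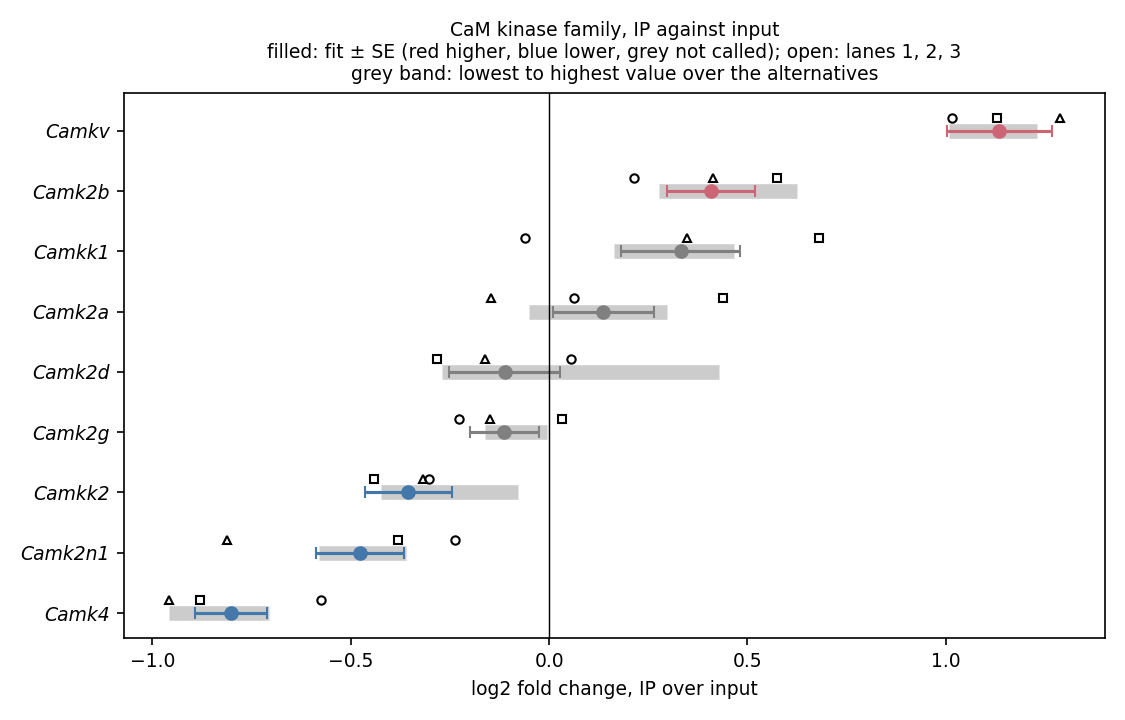
Log2 fold change of IP over input for each of the 9 genes, with the edgeR estimate ± SE as filled circles (red called higher, blue called lower, grey not called), the values of the 3 lanes as open symbols, and the range over the 17 alternatives as a grey band. The bands of Camk2d and Camk2a cross 0, and those of all other members do not, with that of Camk2g reaching -0.0046.

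Per kilobase of exon, the levels of the family spanned a wide range, with Camk2n1, Camk2a and Camk4 highest in both groups. Only Camk4 kept its exact rank, and Camkv went from rank 6 in the input to rank 4 in the IP. In the input Camk2n1 was at 578 ± 72.3 CPM per kilobase, Camk2a at 382 ± 24.9, Camk4 at 306 ± 14.7, Camk2b at 42.6 ± 3.14, Camk2g at 33.9 ± 1.29 and Camkv at 28.7 ± 5.09. The lowest were Camk2d at 14.3 ± 1.5, Camkk2 at 13.2 ± 1.46 and Camkk1 at 11.7 ± 1.60, whose ranges overlapped. No other neighbours in the input order overlapped. In the IP, Camk2a was at 420 ± 90.7 CPM per kilobase and Camk2n1 at 416 ± 54.5, with overlapping ranges, and Camk4 followed at 175 ± 17.5. Camkv at 62.9 ± 6.80 and Camk2b at 56.6 ± 8.83 overlapped too, above Camk2g at 31.3 ± 2.25. Camkk1 at 14.8 ± 2.88, Camk2d at 13.3 ± 2.87 and Camkk2 at 10.3 ± 0.982 CPM per kilobase again came last, with ranges that overlapped between neighbours. The order rests on the exon lengths. Per kilobase of the longest transcript, Camk2d was at 58.4 CPM in the input, beside Camk2g at 58.5, and Camkv ranked below Camk2b in the IP (72.2 against 125).

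Ratios of reads inside a library do not depend on how libraries are scaled. With 3 against 3 libraries the exact two-sided permutation test cannot go below p = 0.1, so no ratio could pass 0.05. Of the 9 quantities compared, 6 were chosen after values had been seen: the ratios of Camk2n1 to Camk2n2, Camk4 to Camk2a and Camkk1 to Camkk2, and the shares of Camk2b, Camk2d and Camk2g. The log2 ratio of Camk2a to Camk2b was 2.72, 2.82 and 3.08 in the input and 2.57, 2.68 and 2.52 in the IP. Every IP library was below every input library, with means of 2.87 ± 0.19 and 2.59 ± 0.084 (exact permutation p = 0.1, 0.18 adjusted over the 9 quantities). The log2 ratio of Camk2n1 to the summed CaMKII subunits was -0.53, -0.73 and -0.43 in the input and -0.83, -1.5 and -1.15 in the IP. The inhibitor was 1.51-fold lower relative to its target kinase in the IP, again without overlap (log2 difference -0.60, exact permutation p = 0.1, adjusted 0.18). The log2 ratio of Camk4 to Camk2a was -1.48, -1.54 and -1.53 in the input, a spread of 0.034 (SD). In the IP it was -2.12, -2.86 and -2.34, a spread of 0.38, and lowest in replicate 2, where Camk2a was highest. This ratio was 1.90-fold lower in the IP (exact permutation p = 0.1, adjusted 0.18). The log2 ratio of Camkk1 to Camkk2 was -1.32, -1.86 and -1.98 in the input and -1.07, -0.74 and -1.32 in the IP, with a mean difference of 0.68 (exact permutation p = 0.2, adjusted 0.26).

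**Figure D3:**
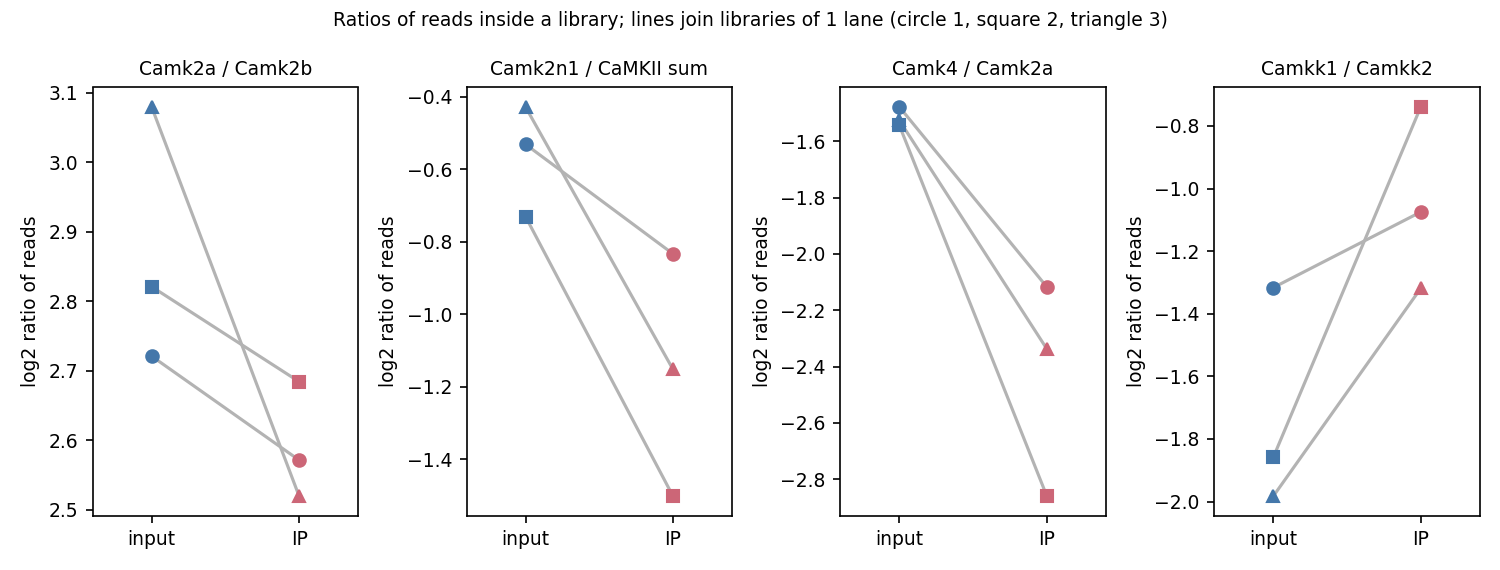
Log2 ratios of reads inside each library (vertical axes, each on its own scale, not starting at 0) for 4 pairs of transcripts in the input and IP, with lines joining libraries of the same lane. The ratios of Camk2a to Camk2b, Camk2n1 to the CaMKII sum and Camk4 to Camk2a are lower in the IP in each of 3 lanes, and that of Camkk1 to Camkk2 is higher in each.

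Camk2a was the main CaMKII subunit transcript in every library. Per kilobase of exon, Camk2a made up 79.2%, 81.1% and 81.9% of the CaMKII total in the input and 79.4%, 82.6% and 79.0% in the IP. The means were 80.7% ± 1.43 and 80.3% ± 1.97 (SD, n = 3; exact permutation p = 0.9), and the difference of -0.405 percentage points changed sign with the library left out. Camk2b made up 9.82%, 9.39% and 7.93% in the input and 10.9%, 10.5% and 11.3% in the IP. The 3 IP shares of the beta subunit were all above the input shares (means 9.05% ± 0.993 and 10.9% ± 0.379, exact permutation p = 0.1, adjusted 0.18). Camk2g made up 7.17% ± 0.364 and 6.11% ± 0.817 (exact permutation p = 0.2), and Camk2d 3.04% ± 0.411 and 2.66% ± 0.930 (exact permutation p = 0.6). With the longest transcript as the length, the mean share of Camk2a was 73.0% in the input and 72.7% in the IP, and that of Camk2b 12% and 14.5%. On that length Camk2d made up 7.45% ± 0.944 and 6.49% ± 2.19. Camk2g then made up 7.46% ± 0.319 and 6.35% ± 0.774, without overlap of the groups (exact permutation p = 0.1).

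Among the 9673 other genes at a mean of at least 5 CPM, those with the profile most like each member over the 6 libraries were found by the root-mean-square difference of centred log2 CPM. For Camkv these were Pwwp2b (0.0525) and Panx1 (0.0616), and for Camk2b they were Actb (0.0301), the cytoplasmic beta-actin gene, and Ankrd46 (0.0356). Camk2a was nearest to Ablim3 (0.0436) and Enc1 (0.0442). The nearest to Camk4 were Far1 (0.0387) and Ankrd28 (0.0420), to Camk2n1 Wls (0.0526) and Yipf6 (0.0563), and to Camkk2 Tnrc6a (0.0372) and Gcnt2 (0.0375). Camk2g was nearest to Pip4k2a (0.0214) and Ank (0.0287), Camk2d to Haus6 (0.0643) and Pcgf2 (0.0659), and Camkk1 to Tada3 (0.0767) and Gtf3c1 (0.0868).

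The members' calcium sensor and its listed small binders were all higher in the IP. This list was chosen with earlier results of these data known, so its counts describe the listed genes only. Of 7 genes, 7 were called higher and 0 lower, against 21.3% and 23.4% of all tested genes. Their median log2 fold change was 0.78, against -0.015 over all tested genes, and the 7 calls held in all 17 alternatives. Corrected for length, the median was 0.46. Calm2 and Calm3 encode calmodulin. Calm2 was at 2165 ± 179 CPM in the input and 6189 ± 687 CPM in the IP (log2 fold change 1.52), and Calm3 at 1011 ± 139 and 1652 ± 96.7 CPM (0.71). Reads that fit several places are not counted, so genes with near-identical copies are measured with uncertainty. Neurogranin (Nrgn), which holds calmodulin in its calcium-free form at the synapse, was at 282 ± 12.3 and 470 ± 70.0 CPM (0.74). Pcp4, which speeds calcium exchange on calmodulin, was at 23.8 ± 2.55 and 72.9 ± 10.2 CPM (1.61).

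The list of CaM kinase I and other family members is set against 21.3% higher and 23.4% lower over all tested genes. In it, 3 of 5 were higher and 0 lower (median 0.78). Besides Camk2n2 these were the CaM kinase I genes Pnck, at 14.7 ± 1.45 and 31.9 ± 3.52 CPM (log2 fold change 1.12, edgeR adjusted p = 9.0e-05), and Camk1g, at 20.5 ± 2.60 and 35.3 ± 1.31 CPM (0.78, edgeR adjusted p = 0.00065). Camk1d (0.11, edgeR adjusted p = 0.39) and Camk1 (-0.10, edgeR adjusted p = 0.70) were not called. With correction for length the median was 0.36, and Camk1d was called higher (0.27).

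The next list holds 14 genes of phosphatases that oppose CaM kinases and of regulators of these phosphatases, inhibitors included. In it, 5 were called higher and 0 lower (median 0.22), against 21.3% and 23.4% of all tested genes. The share called is not above the 44.8% of all tested genes. Calcineurin, the phosphatase that calmodulin itself activates, was represented by Ppp3cb (log2 fold change 0.41) and its regulatory subunit Ppp3r1 (0.40), while its main catalytic subunit gene Ppp3ca was not called (0.10) except with the length correction, alone and with the replicate block. Ppp1r1b, which encodes the phosphatase inhibitor DARPP-32, was at 69.2 ± 8.43 CPM in the input and 201 ± 30.4 CPM in the IP (1.54, edgeR adjusted p = 3.3e-06).

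Of 14 postsynaptic CaMKII partners and substrates, 4 were called higher and 3 lower (median -0.11), a share close to the 44.8% called over all tested genes. The exchange factors Rasgrf1 (318 ± 4.25 and 629 ± 25.0 CPM, log2 fold change 0.98), Tiam1 (0.96) and Kalrn (0.52), and the NMDA receptor subunit Grin1 (0.38), were called higher. The Grin1 call was lost in 5 of 17 alternatives: with the filter of at least 1 CPM, and without input replicate 1, input replicate 2, IP replicate 2 or IP replicate 3 (edgeR adjusted p up to 0.109). Grin2b, the NMDA receptor subunit that docks CaMKII, was called lower (-0.28, edgeR adjusted p = 0.026), but corrected for length it was called higher (0.29, and 0.59 with the longest transcript). Its call held in 7 of 17 alternatives, and was also lost with total counts and without input replicate 1, 2 or 3 or IP replicate 1 or 3. The calls of Shank3 (-0.41) and Rasgrf2 (-0.34) were lost with both length corrections and with total counts. Each was also lost without input replicate 2, input replicate 3 or IP replicate 3, among others, and held in 8 of 17 alternatives. With the length correction 7 of the 14 were higher and 1 lower (median 0.32), and with the longest transcript 8 and 1 (median 0.41). Of all genes called in these 2 fits, 54.3% and 54.2% were higher, against 47.7% without correction.

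Of 15 nuclear targets, 2 were called higher and 4 lower (median 0.019), again close to 44.8%. Creb1, whose protein CaM kinase IV phosphorylates, was at 111 ± 13.0 CPM in the input and 71.4 ± 7.94 CPM in the IP (log2 fold change -0.63, edgeR adjusted p = 0.00096), a call that held in all 17 alternatives, though the value was -0.28 with the length correction and -0.31 with the longest-transcript one. Crebbp (-0.59), Mef2c (-0.53) and Crtc2 (-0.61) were also called lower, and Srf (0.50) and Mef2d (0.34) higher. The Crtc2 call was lost in 4 of 17 alternatives (total counts, or without input replicate 1, input replicate 2 or IP replicate 3), and that of Mef2d in 3 (without input replicate 1, input replicate 2 or IP replicate 2). The counts turned to 7 higher and 3 lower with either length correction. Of all genes called in those fits, 54.3% and 54.2% were higher. The first correction ended the call of Mef2c (-0.12) and the longest-transcript one that of Crebbp (-0.14). The list of AMP-activated kinase, a target of Camkk2, holds 6 subunit genes and Stk11, which encodes another upstream kinase. Of these 7 genes, the catalytic subunit gene Prkaa2 was lower (-0.59, edgeR adjusted p = 0.00050, and -0.29 with the longest-transcript correction). In this list 1 gene was lower and 0 were higher (median 0.0076), against 23.4% and 21.3% of all tested genes. The other catalytic subunit gene, Prkaa1, had a log2 fold change of 0.020 and was not called (edgeR adjusted p = 0.91).

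Of 15 other calmodulin-dependent or CAMK-group kinases 14 could be tested, since Mylk2 had 0 reads. Of the 14, 4 were higher and 4 lower (median -0.35), against 21.3% and 23.4% of all tested genes. Dapk1, a calmodulin-regulated death-associated kinase, was at 83.7 ± 6.17 and 126 ± 15.5 CPM (log2 fold change 0.59). Cask, a scaffold with a CaM kinase domain, was called lower (-0.53, edgeR adjusted p = 0.00037), a call lost with the longest-transcript correction (-0.21, edgeR adjusted p = 0.060). Also lower was Mylk, the myosin light chain kinase of contractile cells (27.6 ± 6.17 and 4.97 ± 1.16 CPM, log2 fold change -2.47). Dclk1, at 1973 ± 208 and 2056 ± 170.4 CPM, was not called (0.060), but was called higher with the length correction (0.45) and with the longest-transcript one (0.36). Glial and vascular markers fell in the same IP libraries. Their part in the lower levels of Mylk, or of Camk4, Camk2n1 and Camkk2, was not tested.

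**Figure D4:**
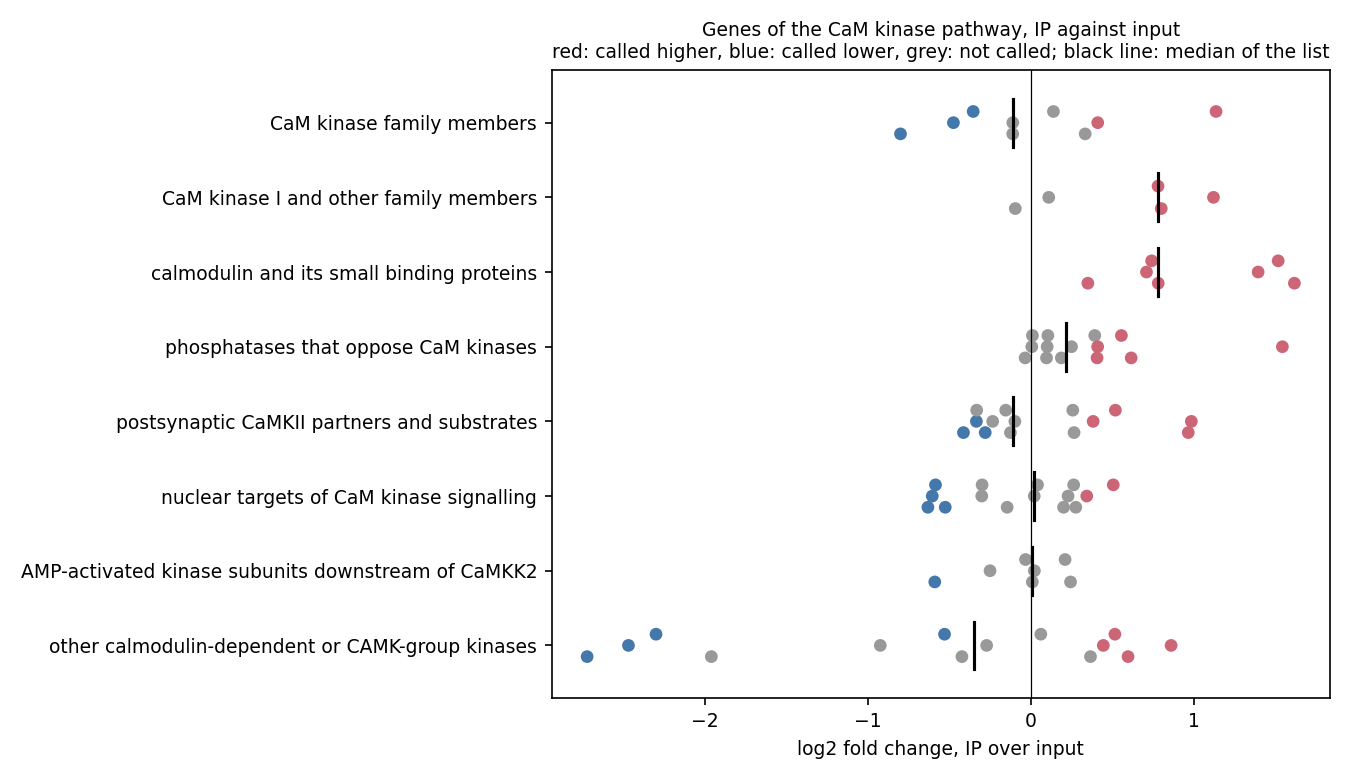
Log2 fold change of IP over input for each tested gene (points) in the 9 family members and 7 lists of pathway genes, with genes called higher in red, lower in blue and not called in grey, and the list median as a black line. All 7 genes of calmodulin and its small binding proteins lie to the right of 0, while the 9 family members lie on both sides with a median of -0.11.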

How the data were processed

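Counts of reads per gene symbol for 3 input and 3 IP libraries were deposited by the authors as raw whole numbers. The submitters' processing notes name STAR 2.0.0e (an aligner), HTSeq (a read counter) and the build mm10. How strand was treated and which gene models were used is not given in the sources used here. Rows naming no gene, left out of library sizes and tests, held 48.7% ± 0.995 of the listed reads in the input and 45.0% ± 1.32 in the IP (SD, n = 3). Reads at several places were 22.4% ± 1.21 and 34.4% ± 1.43, and reads matching several genes 8.99% ± 0.856 and 1.82% ± 0.0772. Reads outside genes were 17.2% ± 0.722 in the input and 8.78% ± 0.162 in the IP.

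The 9 members and all gene lists were chosen with earlier results of these data known. The fit used edgeR 4.0.16 in R 4.3.3: TMM scaling, filterByExpr (16506 genes), a group term, the two-sided quasi-likelihood test and Benjamini-Hochberg adjustment over all genes at 0.05. Alternatives were DESeq2 1.42.0, limma-voom (limma 3.58.1), RLE factors, total counts, no filter, at least 1 CPM in 3 libraries, a replicate block, a length offset, both together, and leaving out each library. The offset was a lowess curve (span 0.3) on exon length from GENCODE M21, for 14469 genes. The same offset on the longest transcript was chosen after seeing the data. The genes named are the 9 members, genes of the lists and, per member, the 2 nearest genes in profile at a mean of at least 5 CPM. Some genes of the lists are not reported here by name.

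Libraries of a group differed by 22.0 to 65.2 in chi-square per degree of freedom, so none was a copy. A floor of 3 reads lay at 0.0430 to 0.0817 CPM, and the members had 1848 to 273023 reads per library, so counting error is small beside the spread between libraries. Tested on simulated data of 16506 genes for the IP against input comparison, the fit recovered 78% of 100 genes changed by 1 log2 unit and 100% of 100 changed by 2, with 14 false calls. The changed genes all had a mean of at least 5 CPM. No change under 1 log2 unit was simulated, the size seen for every member but Camkv, so recovery there is not known. In the data 44.8% of genes were called, so the number of false calls may differ.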

Additional observations from a re-analysis of the deposited data

How the results depend on the processing

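Camkv, Camk4 and Camk2n1 kept their calls, and Camk2g stayed uncalled, in all 17 alternatives. All alternatives used the same counts, so none addresses reads lost where genes overlap, as at Camkv and Camk4. With the length offset and the replicate block together, 4 members were called higher, Camk2a (0.28) and Camk2d (0.41) among them. Camk2a was also called with the longest-transcript offset and block (0.26). The number called higher ran from 1 to 3 when each library was left out, 1 of them without input replicate 3. The log2 fold change of Camk2d turned to 0.43 with the length offset, and to 0.074 with the longest-transcript offset and 0.055 with that offset and the block. Leaving out single libraries it ran from -0.27 to 0.041, and that of Camk2a from -0.050 to 0.24. The difference in the Camk2a share ran from -1.54 to 0.27 percentage points. The cause of these changes was not tested.

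Replicate numbers match sequencing lanes in the labels. Over 16506 genes the deviations of libraries with the same number correlated at 0.087, 0.061 and 0.043, and each library correlated best with its own number. The others ran from -0.057 to 0.0014. With the replicate block 3607 genes were called higher and 3966 lower, against 3523 and 3864, and no call of a member changed.

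Over genes tested in both fits, the median change in log2 fold change was at most 0.0928, with total counts. The median over all genes tested was -0.17 with no low-count filter, which tests 22418 genes, against -0.015. Genes higher made up 47.7% of those called, and 45.2% to 55.3% over the alternatives. For the pathway lists 210 of 238 counts and 94 of 119 medians stayed close, counts within 1.5 times and medians within the SD of the list's median over the 3 lanes. With 3 libraries a group, precision is limited by the spread between libraries, not by depth.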
